A study of Mus musculus with 10 samples.

Results

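The genes described here are 31 that fold, export and degrade proteins in the endoplasmic reticulum (ER) or signal when that compartment is stressed. They were chosen by name from a written list, with earlier results of these data known. All 31 were found among the 35667 genes counted in mouse aorta by RNA sequencing. RNA came from whole aorta, the artery that carries blood out of the heart, of C57BL/6 mice aged 12 weeks. Titles assign 5 libraries to Ovgp1 KO and 5 to WT, with no treatment named. KO stands for knockout, here of the gene of oviductal glycoprotein 1, and WT for wild type. A second label, the genotype, gives Ovgp1 to KO replicate 1 but a different number after Ovgp, from 2 up to 5, to each of the remaining KO replicates. The labels name neither the part of the gene deleted nor any Cre or promoter, and they do not say which libraries came from separate animals.

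Proteins bound for secretion or for membranes enter the ER through a channel, are folded by chaperones and by enzymes that form disulfide bonds, and are sent back to the cytosol for destruction when folding fails. A backlog of unfolded protein is sensed by 3 membrane proteins, encoded by Ern1, Eif2ak3 and Atf6. They raise the output of folding and degradation genes through the transcription factors XBP1, ATF6 and ATF4, and prolonged stress induces Ddit3, whose product CHOP promotes cell death. Vascular smooth muscle cells and fibroblasts secrete collagen and elastin, and plasma cells secrete antibodies, so all 3 depend on this machinery.

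Library totals ran from 24434745 to 26694590 counts in KO and from 21242030 to 24396394 in WT. KO libraries differed from each other by little more than counting error. A chi-square compared the counts of each pair of libraries gene by gene (mean of 50 or more). Divided by its degrees of freedom, it would be near 1 for pure counting error, and it was 1.77 to 3.25 in the 10 KO pairs and 11 to 154 in the 10 WT pairs. P-values of 5 KO against 5 WT libraries therefore rest on a KO spread near counting error. Results are also given with KO as 1 sample, for which the 5 KO libraries were added up before fitting. Ovgp1 itself was higher in the libraries labelled KO, at 17.8 to 21.9 CPM (counts scaled to an equal library size), than in WT, at 1.98 to 4.69 CPM, so every direction below follows the labels and not a measured loss of the gene. Mitochondrial genes took 16.2% and 13.2% of the counts of WT replicates 1 and 3, 6.75% to 9.59% in the remaining WT libraries and 7.61% to 7.88% in KO. Smooth muscle genes marked the tissue, with Acta2 at 14722 to 25020 CPM and Myh11 at 7229 to 9701 CPM over all libraries, whereas the smooth muscle gene Tagln had only 20.8 to 29.3 CPM.

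Several members carry, just upstream of their start, the DNA letters through which ER stress is known to act on transcription. The ER stress element ERSE (CCAAT and CCACG with 9 bases between), ERSE-II (ATTGG and CCACG with 1 base between), the XBP1-binding UPRE (TGACGTGG) and the ATF4-binding CARE (TGATGNAAT) were searched on both strands of the 250 bases before each RefSeq start in GRCm38. ERSE and ERSE-II share the letters CCACG. Of 31 members, 26 had a promoter sequence there. Those without an entry were Atf6, Manf, Hyou1, Derl1 and Mzb1. Counted by gene, ERSE was found in 6 of the 26 (Creld2, Pdia6, Calr, Canx, Derl3 and Syvn1). It was found in 0.13% of 27025 genes with promoters of that length, and in 3 of 99 other ER genes listed below. ERSE-II was found in Herpud1, in 0.037% of genes and in 0 of those 99. UPRE was found in Txndc5, in 0.603% of genes and in 5 of the 99. CARE was found in 0 members, in 0.91% of genes and in 1 of the 99. A match describes letters in this window and shows no binding. The members were listed for their part in ER folding and stress, so a share above that of all genes is no independent finding. The matches of the 2 members with a motif whose counts passed the test below, and of 3 members with an ERSE, are shown 5′ to 3′ on the strand of the gene, with the motif or its reverse complement in capitals.
Herpud1, ERSE-II, chr8:94386347-94386417, plus strand: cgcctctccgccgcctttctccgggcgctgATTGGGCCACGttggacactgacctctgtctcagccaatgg
Txndc5, UPRE, chr13:38528015-38528082, minus strand: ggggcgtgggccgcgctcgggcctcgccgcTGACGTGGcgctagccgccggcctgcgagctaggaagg
Creld2, ERSE, chr15:88819490-88819568, plus strand: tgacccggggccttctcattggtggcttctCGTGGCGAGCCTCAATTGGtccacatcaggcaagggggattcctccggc
Pdia6, ERSE, chr12:17266461-17266539, plus strand: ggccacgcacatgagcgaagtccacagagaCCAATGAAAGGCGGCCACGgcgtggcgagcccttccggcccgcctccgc
Calr, ERSE, chr8:84847045-84847123, minus strand: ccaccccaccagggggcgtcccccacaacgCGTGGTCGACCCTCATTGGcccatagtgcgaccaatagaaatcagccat
In GENCODE M21 the Creld2, Pdia6 and Calr windows overlapped no gene, the Herpud1 window lay inside the gene Gm15890 but in none of its exons, and the Txndc5 window lay inside the longest Txndc5 model and an exon of Gm31834.

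The members spanned a wide range of levels in WT aorta. Per kilobase of exon, the calcium-binding chaperone gene Calr was highest at 288 CPM per kilobase (260 to 314 over the 5 WT libraries). P4hb, which encodes protein disulfide isomerase, followed at 218 (197 to 237), and Pdia3, a disulfide isomerase that works with calreticulin and calnexin, at 186 (168 to 212). The WT ranges of Calr and P4hb did not overlap, while those of P4hb and Pdia3 did. The stress transcription factors Atf4 and Xbp1 came next, at 81.7 and 73.5 CPM per kilobase, with overlapping ranges. The 3 sensors were far lower, at 5.66 (Atf6), 3.74 (Ern1) and 3.28 (Eif2ak3). Derl3 and Mzb1 were lowest, at 0.326 and 0.269.

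Of the 31 members, all with enough counts to be tested, 6 were higher and 1 was lower in the libraries labelled KO (edgeR quasi-likelihood test, adjusted p of 0.05 over all 15710 genes tested). Herpud1, Pdia3, Pdia4, Txndc5, Sel1l and Mzb1 were higher and Xbp1 was lower. Those 7 are 22.6% of the members, and 14.3% of all tested genes passed. At an unadjusted p under 0.05 stood 11 members, 35.5%, against 29.5% of all genes. In the KO-higher direction the share was 19.4% of members and 6.84% of all genes. Among genes lower in KO, 7.43% of all tested genes passed. Apart from Mzb1, the differences were small, with folds between 1.12 and 1.28 for the members that were higher. The median log2 difference of the members was 0.07, against -0.02 over all genes. Fitted differences were above 0 for 22 members, 71% of them, against 45.8% of all genes. The members were counted in the same libraries and many shared their WT extremes, as described below, so these shares do not rest on 31 separate observations.

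In the fit with KO as 1 sample, 0 of 31 members passed, and 0 passed with DESeq2 or limma-voom on the same summed counts. At an unadjusted p under 0.05 that edgeR fit held 2 members, Pdia4 and Mzb1, which is 6.45% of them, against 3.72% of all genes, and 0.0446% of all genes passed after adjustment. The lowest KO library exceeded the highest WT library for Herpud1, Pdia4, Txndc5 and Sel1l, a pattern seen in 7.38% of tested genes. For Xbp1 the order was the opposite, which held for 7.22% of genes. Herpud1, Pdia4 and Xbp1 kept their calls in each of 20 other settings of the 5 against 5 fit. Without the mitochondria-rich WT replicates 1 and 3, 13 members passed, 11 higher and 2 lower, while the share of all genes that passed rose as well, to 27.2%. Leaving out KO replicate 1 left 3 members, and leaving out KO replicate 3, 4 or 5 left 4, when 8.1% to 8.79% of all genes passed.

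**Figure D1:**
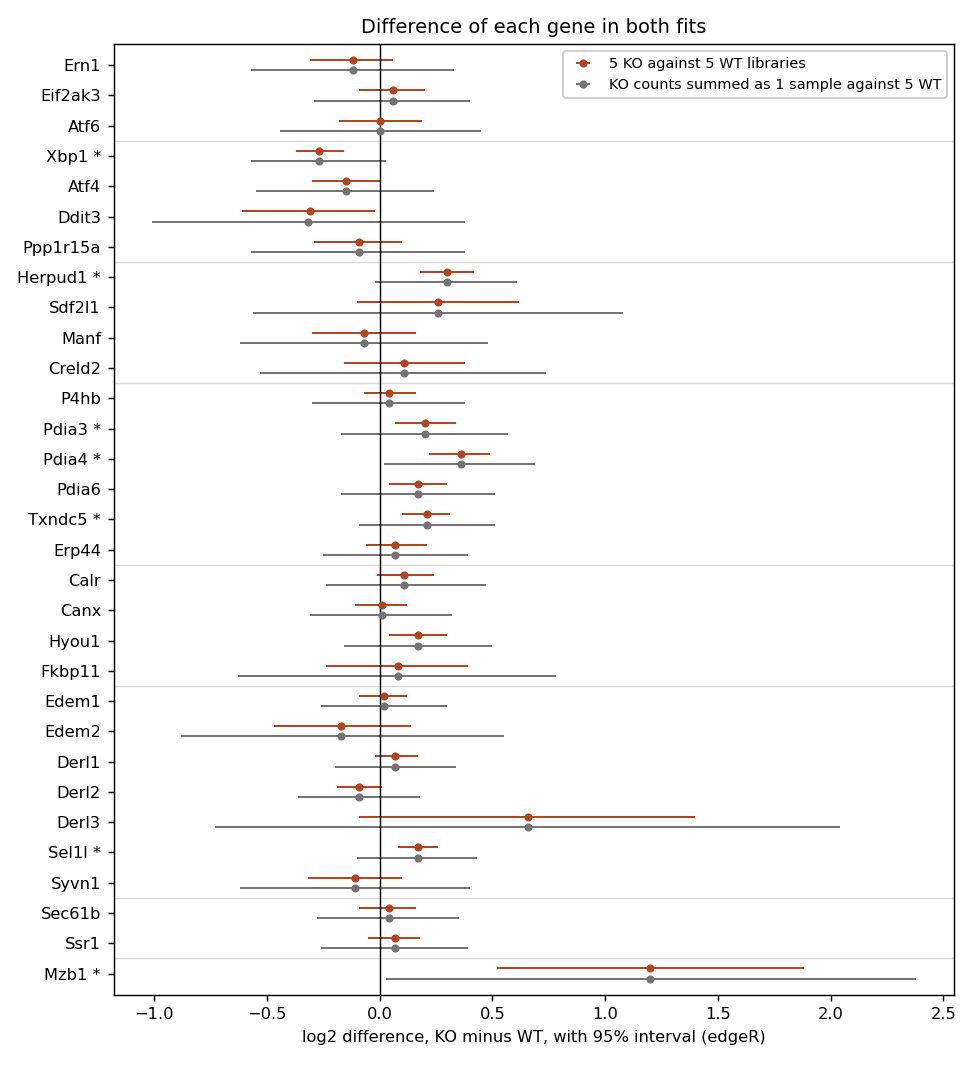
Log2 difference (KO minus WT, x axis) of each of 31 members (y axis, grouped by role, asterisk where the adjusted p of the 5 against 5 fit passed 0.05), with 95% intervals from edgeR. Red points compare 5 KO with 5 WT libraries and grey points treat the summed KO counts as 1 sample, which leaves the estimates in place and widens the intervals so that 2 members, Pdia4 and Mzb1, stay clear of 0.

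The 3 stress sensors did not pass. Ern1, the kinase and nuclease that splices Xbp1 mRNA, had 27.3 to 29.4 CPM in KO and 25.8 to 35.2 CPM in WT (log2 difference -0.12, SE 0.08, adjusted p = 0.365). Eif2ak3, which encodes the PERK kinase that slows protein synthesis, had 19.6 to 22.1 CPM in KO and 17.6 to 21.5 CPM in WT. Atf6, a membrane-bound factor released by cleavage, had 49.7 to 54.2 CPM in KO and 44.2 to 61.2 CPM in WT. For each of the 3, the KO and WT ranges overlapped. The 95% interval of the fold was 0.809 to 1.04 for Ern1, 0.941 to 1.15 for Eif2ak3 and 0.881 to 1.14 for Atf6.

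Among the transcription factors and their feedback, Xbp1 fell. Xbp1 (ENSMUSG00000020484; chromosome 11, 5520659 to 5525893 in GRCm38, plus strand) encodes the factor that drives folding and degradation genes once its mRNA is spliced. It had 201, 195, 192, 202 and 203 CPM in KO replicates 1 to 5 and 251, 253, 232, 232 and 226 CPM in WT replicates 1 to 5. All KO values (192 to 203 CPM) lay below all WT values (226 to 253 CPM). The log2 difference was -0.27 (SE 0.05, adjusted p = 0.00471), a fold of 0.831 (95% interval 0.773 to 0.894). With KO as 1 sample the interval was 0.674 to 1.02 (unadjusted p = 0.0745). The counts sum over the gene, so spliced and unspliced Xbp1 mRNA were not separated.

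Atf4, a factor translated preferentially under stress, had 174, 173, 175, 170 and 173 CPM in KO replicates 1 to 5 and 228, 175, 199, 180 and 182 CPM in WT replicates 1 to 5. The KO values sat at the low end of WT, touching WT replicate 2 and well under WT replicate 1. Its log2 difference was -0.15 (SE 0.07, adjusted p = 0.161). Ddit3, the gene of CHOP, had 42.0, 38.8, 39.8, 39.2 and 43.4 CPM in KO and 62.1, 46.0, 63.9, 38.6 and 42.2 CPM in WT replicates 1 to 5. KO lay around WT replicates 4 and 5 and below WT replicates 1, 2 and 3. The log2 difference of Ddit3 was -0.31 (SE 0.13, adjusted p = 0.141). Without WT replicate 4 it was -0.40 with an adjusted p of 0.0437 (2.36e-08 to 0.673 over 20 settings). WT replicate 4 held the lowest WT value of Ddit3, so that change followed from the choice and tests no difference. Ppp1r15a, which restores protein synthesis after stress, did not pass, with 50.9 to 55.4 CPM in KO and 43.3 to 64.6 CPM in WT.

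Of 4 stress-induced ER proteins, Herpud1 rose. Herpud1 (ENSMUSG00000031770; chromosome 8, 94386438 to 94395377, plus strand), whose ERSE-II is printed above, encodes a membrane protein that assembles the degradation complex. Its CPM were 149, 148, 146, 145 and 143 in KO replicates 1 to 5 and 117, 128, 125, 105 and 120 in WT replicates 1 to 5. The groups did not overlap, and WT replicate 4 was lowest. That is a fold of 1.23 (95% interval 1.13 to 1.33; log2 difference 0.30, SE 0.05, adjusted p = 0.00542). The interval was 0.989 to 1.52 with KO as 1 sample.

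Sdf2l1 and Creld2, both soluble ER proteins induced by stress, and Manf, a secreted and ER-resident survival factor, did not pass. Sdf2l1 had 12.0 to 14.1 CPM in KO and 7.37 to 14.4 CPM in WT, with a log2 difference of 0.26 (SE 0.16). Creld2, which carries an ERSE, had 52.6 to 57.0 CPM in KO and 38.5 to 63.4 CPM in WT. Manf had 73.8 to 80.6 CPM in KO and 63.3 to 96.0 CPM in WT. All 3 genes had KO values inside the WT range.

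Enzymes of the disulfide isomerase family, which form and rearrange disulfide bonds, had fitted differences above 0 for 6 of 6 members, and 3 passed. Over all tested genes, 45.8% had a difference above 0 and 6.84% passed as higher. All 6 members also shared their highest and their lowest WT library, as described below, so they are not 6 separate observations. Pdia4 (ENSMUSG00000025823; chromosome 6, 47796141 to 47813430, minus strand) differed most in the family. Its CPM were 135, 138, 131, 133 and 140 in KO replicates 1 to 5 and 114, 116, 105, 91.9 and 102 in WT replicates 1 to 5. The lowest KO library stood above the highest WT library, WT replicate 2. KO was 1.28 times WT (95% interval 1.16 to 1.41; log2 difference 0.36, SE 0.06, adjusted p = 0.00415). With KO as 1 sample the interval was 1.01 to 1.62 (unadjusted p = 0.0423, adjusted p = 0.999).

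Txndc5 (ENSMUSG00000038991; chromosome 13, 38500079 to 38528824, minus strand), an isomerase with thioredoxin domains and the member with a UPRE, had 341, 323, 330, 336 and 331 CPM in KO and 296, 301, 299, 269 and 274 CPM in WT replicates 1 to 5. The groups did not overlap. The fold was 1.16 (95% interval 1.07 to 1.24; adjusted p = 0.0157), and with KO as 1 sample the interval was 0.939 to 1.42. Without KO replicate 1 the adjusted p was 0.0503 (1.38e-05 to 0.0619 over 20 settings).

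Pdia3 (ENSMUSG00000027248; chromosome 2, 121413775 to 121438687, plus strand) had 683, 667, 664, 673 and 673 CPM in KO and 599, 665, 573, 528 and 558 CPM in WT replicates 1 to 5. WT replicate 2 lay inside the KO range and the other 4 WT libraries below it. The fold was 1.15 (95% interval 1.05 to 1.26), with an adjusted p of 0.0495, at the edge of the threshold. That call was lost without any of the 5 KO libraries (0.0968 to 0.111), without WT replicate 1 (0.0588), 3 (0.0707), 4 (0.0741) or 5 (0.105). Its interval was 0.891 to 1.48 with KO as 1 sample.

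Pdia6, P4hb and Erp44 did not pass. Pdia6, with an ERSE, had 234 to 241 CPM in KO and 191 to 237 CPM in WT (log2 difference 0.17, SE 0.06, adjusted p = 0.0782). Without WT replicate 2 the adjusted p of Pdia6 was 0.0135 (6.79e-05 to 0.162 over 20 settings). WT replicate 2 held its highest WT value, so that change followed from the choice and tests no difference. P4hb, which is also the beta subunit of the collagen prolyl 4-hydroxylase, had 633 to 653 CPM in KO and 565 to 678 CPM in WT. Its fold was 1.03 (95% interval 0.95 to 1.12). Erp44, which retrieves unfinished proteins to the ER, had 80.3 to 88.1 CPM in KO and 74.4 to 89.6 CPM in WT.

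**Figure D2:**
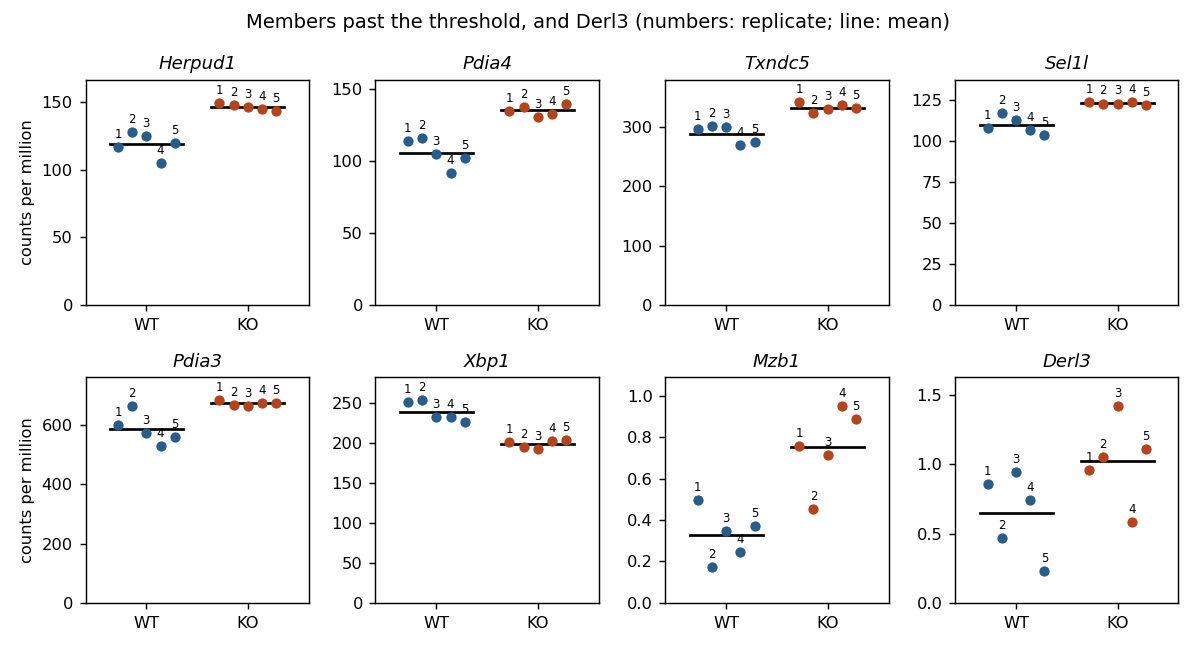
CPM (y axis, from 0) of the 7 members past the threshold and of Derl3 in 5 WT (blue) and 5 KO (red) libraries, numbered by replicate, with the group mean as a line. The groups are separate for Herpud1, Pdia4, Txndc5, Sel1l and Xbp1 and overlap for Pdia3, Mzb1 and Derl3.

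The 4 chaperones and prolyl isomerases did not pass. Calr had 877 to 932 CPM in KO and 750 to 905 CPM in WT, and Canx, its membrane-bound partner calnexin, 321 to 344 and 308 to 359 CPM. Hyou1, which recharges the chaperone BiP with nucleotide, had 132 to 139 CPM in KO and 138, 112, 120, 115 and 117 CPM in WT replicates 1 to 5. Only WT replicate 1 reached the KO range of Hyou1. The log2 difference of Hyou1 was 0.17 (SE 0.06, adjusted p = 0.0737). Without that library it was 0.24 (adjusted p = 0.00637, with 0.000351 to 0.242 over 20 settings). That library held the highest WT value of Hyou1, so the rise followed from the choice and tests no difference. Fkbp11, a prolyl isomerase of secretory cells, had 3.93 to 5.38 CPM in KO and 3.46 to 5.15 CPM in WT.

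Of 7 genes of ER-associated degradation, Sel1l rose. Sel1l (ENSMUSG00000020964; chromosome 12, 91806043 to 91849157, minus strand) encodes the adaptor that holds the ubiquitin ligase of this pathway. It had 124, 123, 123, 124 and 122 CPM in KO replicates 1 to 5 and 108, 117, 113, 107 and 104 CPM in WT replicates 1 to 5. The groups were separate but close. The fold was 1.12 (95% interval 1.05 to 1.20; adjusted p = 0.0224). The call was lost without any of the 5 KO libraries (0.0553 to 0.0599) or without WT replicate 5 (0.0547), and over 20 settings the adjusted p ran from 4.14e-05 to 0.0757. The interval became 0.936 to 1.35 with KO as 1 sample.

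Syvn1, the ubiquitin ligase that SEL1L holds, did not share that difference. It had 37.3 to 40.0 CPM in KO and 45.8, 30.7, 46.2, 44.1 and 39.9 CPM in WT replicates 1 to 5, with WT replicate 2 below and WT replicates 1, 3 and 4 above every KO library. Its log2 difference was -0.11 (SE 0.10, adjusted p = 0.501). Without WT replicate 2 it was -0.19 (adjusted p = 0.0366, with 0.000361 to 0.893 over 20 settings). WT replicate 2 held the lowest WT value of Syvn1, so that change followed from the choice and tests no difference. Edem1 and Edem2, which mark misfolded glycoproteins for removal, had 55.8 to 57.1 and 43.4 to 48.1 CPM in KO, against 51.3 to 60.7 and 39.2 to 67.0 CPM in WT. Derl1 and Derl2, membrane proteins of the exit route, had 144 to 146 and 44.9 to 47.9 CPM in KO, against 131 to 148 and 46.0 to 51.5 CPM in WT. None of these 4 passed. Both genes of the entry channel overlapped as well, with Sec61b, a channel subunit, at 55.2 to 59.3 and 52.5 to 63.0 CPM and Ssr1, of the channel-associated complex, at 204 to 211 and 184 to 222 CPM.

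Mzb1 and Derl3 were counted in few reads. Mzb1 (ENSMUSG00000024353; chromosome 18, 35647267 to 35649367, minus strand) is a co-chaperone of B cells and plasma cells that aids antibody secretion. Its reads numbered 19, 12, 19, 26 and 24 in KO replicates 1 to 5 and 11, 4, 7, 6 and 8 in WT replicates 1 to 5. In CPM, KO ran from 0.451 to 0.950 and WT from 0.171 to 0.498, so KO replicate 2 lay below WT replicate 1. The fold was 2.30 (95% interval 1.43 to 3.69; log2 difference 1.20, SE 0.31, adjusted p = 0.0259), and with KO as 1 sample the interval was 1.02 to 5.19 (unadjusted p = 0.0459). The call was lost without KO replicate 1 (0.0581), 3 (0.0526), 4 (0.0702) or 5 (0.0673), with 0.0109 to 0.132 over 19 settings.

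Derl3, a member of the exit-route family with high expression in secretory cells, had 24, 28, 38, 16 and 30 reads in KO and 19, 11, 19, 18 and 5 reads in WT replicates 1 to 5. KO replicate 4 fell among the WT libraries. The log2 difference was 0.66 (SE 0.34, adjusted p = 0.228). At this depth a change of 0.604 to 4.10-fold in Derl3 lay inside the interval with KO as 1 sample.

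Genes of antibody-producing cells stood apart far more than these members. Of 12 marker genes of plasma and B cells, 7 had enough counts, of which 5 were higher and 0 lower in KO. Their summed level was 314 to 323 CPM in KO and 30.5 to 49.2 CPM in WT. Ighm, the IgM heavy chain, had 3938 to 4260 reads in KO and 96 to 282 in WT. Pou2af1, a B-cell coactivator, had 9 to 23 reads in KO and 0, 1, 0, 0 and 0 in WT replicates 1 to 5. The plasma-cell receptor Tnfrsf17 had 1 to 6 reads in KO and 0 to 6 in WT, and the B-cell gene Ms4a1 1 to 6 and 0 to 4. Fkbp11, also high in plasma cells, had 105 to 143 reads in KO and 72 to 113 in WT. Of 6 fibroblast markers, Dcn, Lum and Scara5 were higher, while Col1a1 (log2 difference -0.34, adjusted p = 0.102), Pdgfra (-0.05) and Col1a2 (0.02) did not pass. Their summed level was 3307 to 3350 CPM in KO against 2814 to 3025 CPM in WT, of which Dcn alone made 1505 to 1557 and 967 to 1283 CPM. Other cell types differed as well, with all 5 red cell markers lower in KO. Of the sympathetic neuron markers 3 of 4 were higher, and of the macrophage markers 2 of 5, with 0 lower in either list. Among smooth muscle markers 1 of 6 was lower, Tagln (log2 difference -0.25, adjusted p = 0.0458), whose low level beside Acta2 is given above. Of the markers of endothelium, brown adipocytes and adipocytes, 0 passed. The part of these cells in the differences of Mzb1, Xbp1 and the folding genes was not tested, and in whole aorta more cells of a type and more RNA per cell cannot be told apart.

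**Figure D3:**
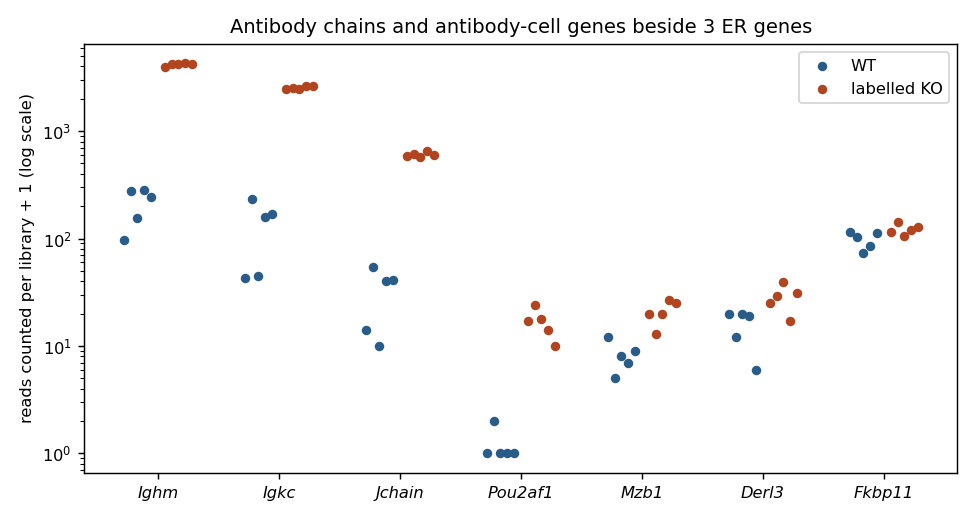
Reads per library plus 1 (y axis, log scale) for 4 genes of antibody-producing cells and the ER genes Mzb1, Derl3 and Fkbp11 (x axis) in 5 WT (blue) and 5 KO (red) libraries. Ighm has 3938 to 4260 reads in KO and 96 to 282 in WT, whereas Mzb1 has 12 to 26 and 4 to 11, and Derl3 and Fkbp11 overlap between groups.

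Variation among the WT libraries was larger than the difference between groups for several stress genes. Creld2, Sdf2l1, Manf and Edem2 are described here with Atf4 and Ddit3 because of their spread, a choice made after their values were seen. WT replicates 1 and 3, the libraries with the high mitochondrial shares, had the 2 highest WT values of Ddit3, Atf4, Creld2, Sdf2l1 and Edem2. Creld2 had 61.8, 48.0, 63.4, 38.5 and 43.4 CPM in WT replicates 1 to 5. Sdf2l1 had 14.4, 11.1, 14.1, 7.37 and 8.96 CPM, a range of 1.95-fold. Edem2 had 61.8, 43.0, 67.0, 39.2 and 44.7 CPM, a range of 1.71-fold. For Manf, WT replicates 1, 2 and 3, at 89.1, 90.5 and 96.0 CPM, were all above WT replicates 4 and 5, at 63.3 and 69.3 CPM.

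KO values of these genes sat between or beside the extremes of WT. As a result their comparison with WT turned on which WT libraries were kept. Because they were picked for that spread, fits to part of the WT libraries describe it and cannot test a difference. Without WT replicates 1 and 3, the log2 difference of Creld2 was 0.36, and without WT replicates 2, 4 and 5 it was -0.18. Over 20 settings that of Sdf2l1 ran from -0.09 to 0.56, the latter without WT replicates 1 and 3. When WT was replicates 1 and 3 alone, the log2 difference was -0.63 for Ddit3 and -0.50 for Edem2. Those libraries held the highest WT values of both genes, so the direction followed from the choice. In that setting, with KO as 1 sample, the log2 differences were -0.64 for Ddit3 and -0.51 for Edem2.

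**Figure D4:**
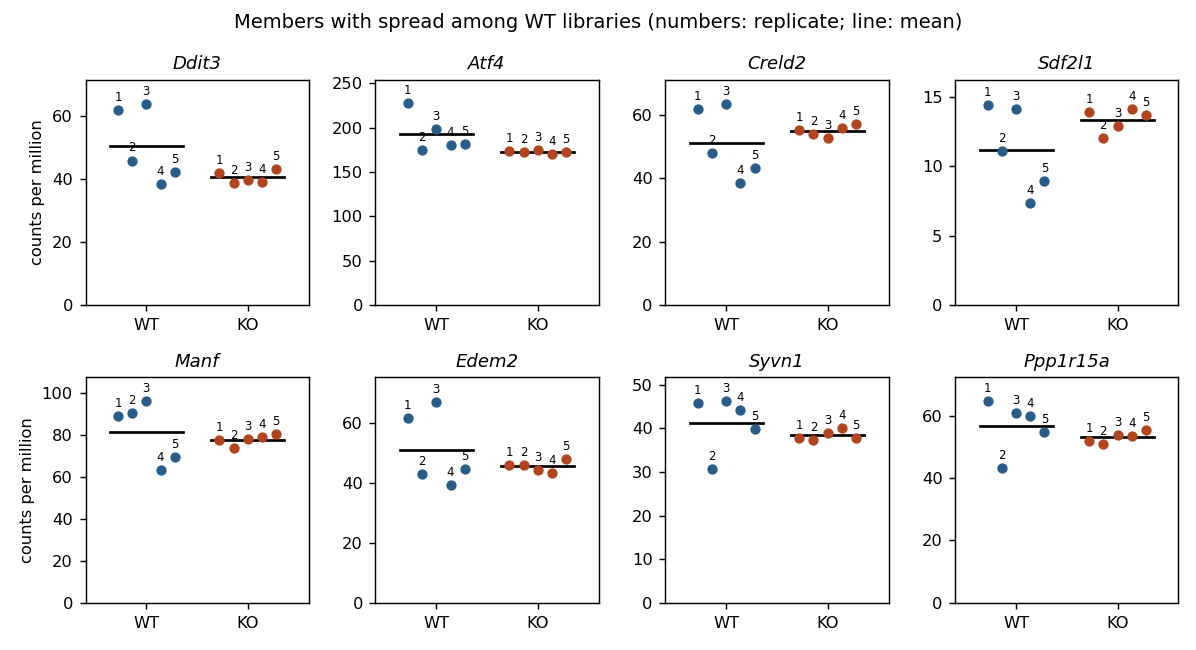
CPM (y axis, from 0) of 8 members in 5 WT (blue) and 5 KO (red) libraries, numbered by replicate, with the group mean as a line. WT replicates 1 and 3 are highest for Ddit3, Creld2, Sdf2l1 and Edem2, and WT replicate 2 is lowest for Syvn1 and Ppp1r15a, while KO libraries cluster within each panel.

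All 6 disulfide isomerases were highest in WT replicate 2 and lowest in WT replicate 4 among the WT libraries. The 4 stress-induced genes were lowest in WT replicate 4 as well, and Herpud1 was the 1 of them that was highest in WT replicate 2. Over all roles, WT replicate 2 had the highest WT value for 14 of 31 members, 45.2%, against 23.7% of all tested genes, and WT replicate 4 the lowest for 14, against 22.2%. No member was highest in WT replicate 4, against 23.4% of all genes. The ratio of WT replicate 2 to WT replicate 4 was 1.26 for Pdia3 and Pdia4, 1.24 for Pdia6, 1.22 for Herpud1 and 1.20 for P4hb. In the same libraries, summed smooth muscle markers were 32145 CPM in WT replicate 2 and 26401 CPM in WT replicate 4, the lowest of all, and summed brown adipocyte markers 132 and 679 CPM. Endothelial markers summed to 499 and 576 CPM in those libraries and to 199 and 138 CPM in WT replicates 1 and 3. The part of cell content in this order was not tested. Over the 28 members with a WT mean of at least 10 CPM, the median coefficient of variation was 8.43% in WT and 2.62% in KO, against 10.6% and 3.51% over 9326 genes of that level.

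**Figure D5:**
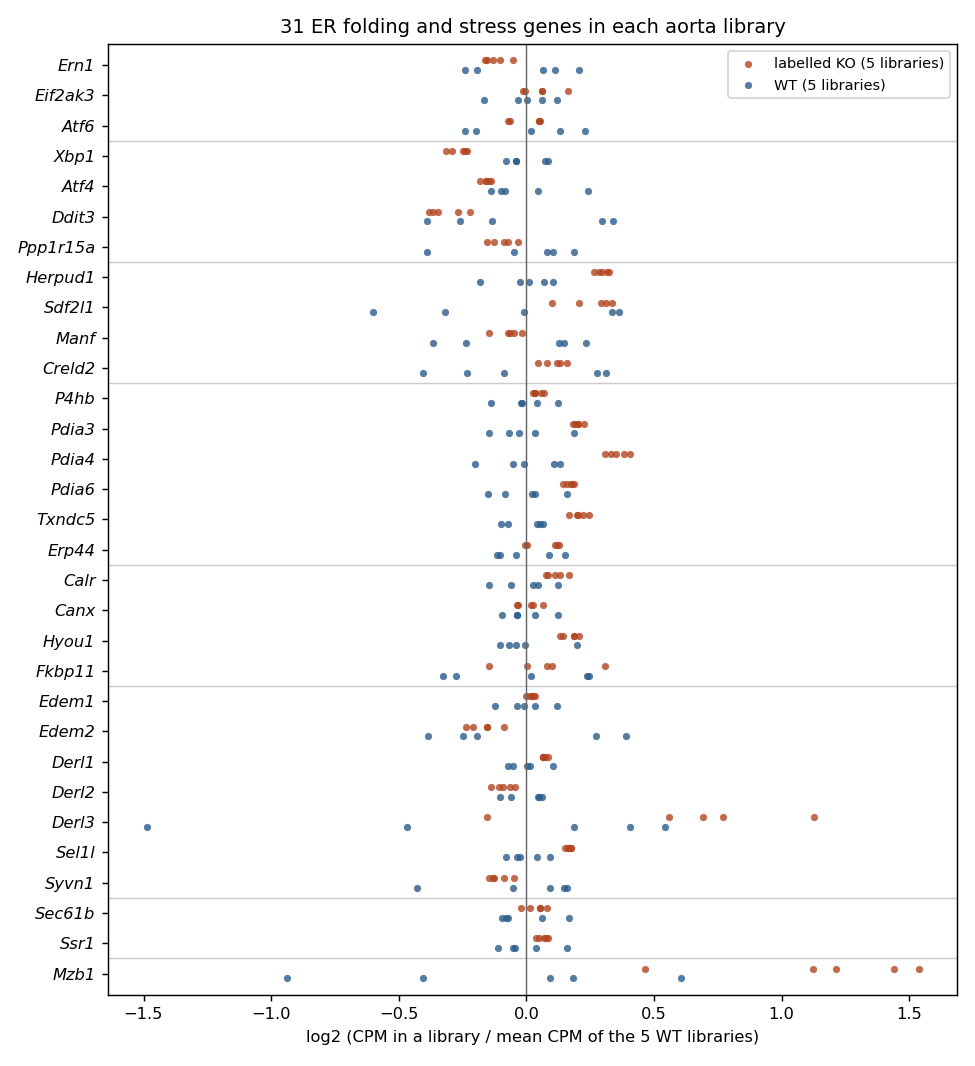
Log2 ratio of the CPM in each library to the mean of the 5 WT libraries (x axis) for 31 members (y axis, grouped by role), with KO in red and WT in blue. KO points lie close together and right of all WT points for Herpud1, Pdia4, Txndc5 and Sel1l, left of them for Xbp1, and inside a wide WT spread for Manf, Creld2 and Edem2.

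Other genes of the secretory pathway, taken from written lists also chosen with earlier results known, differed in both directions. Of 129 listed, 127 matched and 124 were tested, and 12 were higher and 7 lower in KO, 15.3% against 14.3% of all genes. With upper-quartile size factors the split was 15 higher and 4 lower. Without KO replicate 1, 12 passed, against 8.1% of all genes, and without WT replicate 2, 30 passed, against 16.8%. The steepest differences were lower in KO. Creb3l1, a membrane-bound factor of the ATF6 family linked to collagen secretion, had 17.2 to 18.5 CPM in KO and 24.7 to 39.5 CPM in WT. All KO values were below all WT values, and the log2 difference was -0.83 (SE 0.11, adjusted p = 0.000687). Cebpb, a partner of CHOP, had 1.52 to 2.55 CPM in KO and 3.49 to 6.13 CPM in WT (log2 difference -1.33, SE 0.18, adjusted p = 0.00109).

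In the chaperone list, 3 of 22 genes passed, all higher in KO. Of all tested genes, 14.3% passed in either direction and 6.84% as higher. Hsp90b1, the ER form of HSP90, had 286 to 296 CPM in KO and 224 to 250 CPM in WT, a log2 difference of 0.30 (SE 0.05, adjusted p = 0.00202). Fkbp14 and Fkbp9, prolyl isomerases of collagen-producing cells, had log2 differences of 0.35 and 0.30. Hspa5, the gene of BiP, named here for its central place in the pathway, had 840 to 868 CPM in KO and 641 to 830 CPM in WT. All KO values of Hspa5 lay above WT, but it did not pass (log2 difference 0.21, SE 0.07, adjusted p = 0.0609). In oxidative folding, Tmx4 and Pdia5 were higher, at 0.26 and 0.31, and Erp29 lower, at -0.28.

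Elsewhere the directions were mixed. Stt3a, a catalytic subunit of the N-glycosylation complex, was higher at 0.24 and Spcs3, of the signal peptidase, lower at -0.15. In degradation, the lectin gene Os9 (0.23) and the ubiquitin ligase gene Rnf5 (0.22) were higher, and Ube2j2 (-0.35) and Aup1 (-0.51), which bring in ubiquitin conjugation, were lower. In transport to the Golgi, the coat genes Sec23a (0.26), Sec23b (0.23) and Sec24d (0.29) and the cargo receptor gene Mcfd2 (0.18) were higher, and Preb (-0.21) was lower. Rnf5, Mcfd2 and Preb are named because they completed the genes past the threshold, a choice made after their values were seen, as was that of Hspa5. In stress signalling, Bcl2l11 (-0.38) did not pass, nor did the channel gene Sec61g (-0.18) in translocation. With KO as 1 sample 0 of the 124 passed, and 6 had an unadjusted p under 0.05.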

How the data were processed

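RNA from frozen aorta (Trizol) went into TruSeq libraries, per the labels' protocols. Each library has a deposited table of integer counts, 1 row per gene. Bowtie 0.12.2, mm8 and mm9 appear in the submitters' processing notes, which give no role for each. Which tool, annotation and strand option produced the authors' counts is not given in the sources used here. Overlapping genes may share reads. Gene positions come from GENCODE M21 (GRCm38), which held 35562 of 35667 identifiers, and promoters from RefSeq (GRCm38.p6).

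CPM were computed with TMM factors. edgeR 4.0.16 (R 4.3.3; filterByExpr, minimum count 10 and total 15; robust quasi-likelihood F test; Benjamini-Hochberg over 15710 genes; threshold 0.05) compared 5 KO with 5 WT libraries without covariates, then 1 summed KO sample with 5 WT. An SE is the log2 difference over the square root of F, and intervals are 95%. Members and lists were chosen with earlier results of these data known. All members were named, as were up to 3 other genes of smallest p per list. Alternatives were other size factors, filters, DESeq2 1.42.0, limma-voom (limma 3.58.1), a replicate block, left-out libraries, and 47 mitochondrial, haemoglobin and antibody genes left out.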

Additional observations from a re-analysis of the deposited data

Results flagged for a closer look

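Each group of 5 libraries was searched for a library far from the other 4, by the gap to its neighbour over the whole range, for the 31 members and 33 other genes. Of 128 such groups 3 stood out. The cut-off flags about 5% of groups of independent, normally distributed values. These groups share the same libraries and include very low counts, so what chance would give was not established. None was a member. Pdia5 in WT replicate 3 had 13.2 CPM, against 14.9 to 15.3 CPM in the other WT libraries. Cebpb in KO replicate 3 had 2.55 CPM, against 1.52 to 1.79 CPM in the other KO libraries. Pou2af1 in WT replicate 2 had 0.0428 CPM, which is 1 read, against 0 in the other WT libraries.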

How the results depend on the processing

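The count of members past the threshold, 7, became 17 with limma-voom and sample weights, 13 without WT replicates 1 and 3, and 18 without WT replicates 2, 4 and 5 (9 higher, 9 lower). The share of all genes past the threshold, 14.3%, also rose in those settings, to 41.5%, 27.2% and 40%. Leaving out 1 library gave 3 to 5 members for KO (8.1% to 8.79% of all genes) and 5 to 9 for WT (11.1% to 16.8%). Deviations of same-numbered KO and WT libraries from their group means had correlations of -0.0397 to 0.0424. With KO deviations near counting error, these values cannot tell whether the samples were paired. With the replicate number as a block 4 members passed, Herpud1, Pdia4, Mzb1 and Xbp1, with 8.4% of all genes. With KO as 1 sample the count was 0 in each setting, each left-out library included, except 2 without WT replicates 2, 4 and 5, where 3.18% of all genes passed. Other ER genes, 19 past the threshold, numbered 64 with limma-voom, 36 without WT replicates 1 and 3, 60 without WT replicates 2, 4 and 5, 12 to 30 on leaving out 1 library and 13 with the block, beside the same shares of all genes. Pairs of 1 member and 1 setting were also compared with the main 5 against 5 fit. Of these pairs 25 lost a call, 36 gained one and 556 had no change of call. The direction reversed in 1 pair, Creld2 at -0.18 without WT replicates 2, 4 and 5. The cause was not tested. Mzb1 and Derl3, at 4 to 38 reads per library, are limited by depth.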
